A study of Rattus norvegicus with 2 samples.

Results

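The proteasome is the protease complex that degrades most of the short-lived, damaged and misfolded proteins of a cell, after they have been tagged with ubiquitin. Its barrel-shaped core particle has outer alpha rings, which gate the entry, and inner beta rings, which hold the active sites. A regulatory particle caps the barrel, and consists of a base, whose ring of ATPases unfolds the substrate and threads it into the core, and a lid, which removes the ubiquitin chain. Other caps can take the place of the regulatory particle, and dedicated chaperones assemble each part. In the retina, photoreceptors renew their light-sensitive outer segments throughout life, and the complex serves the clearance of their misfolded proteins.

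The genes described here are the 47 rows, of 32662 in the gene table, whose symbol starts with Psma to Psmg followed by a digit, with the inducible subunits Psmb8, Psmb9 and Psmb10 left out and described separately. They comprise 14 genes of the core particle, 17 of the regulatory particle, 4 chaperones of core assembly, 3 chaperones of base assembly, 4 activator subunits, 1 inhibitor and 2 core subunits restricted to other tissues. A further 2 rows carry a matching symbol without coding for a subunit, namely Psmc3ip, a factor of meiotic recombination, and Psme1-ps1, a pseudogene.

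RNA was measured in the retina of Long-Evans rats aged 2 months. The animals were female, according to the methods of the study. CTRL was the retina of a sham-operated eye, and IR12 was a retina in which the blood supply had been interrupted and then restored (ischemia-reperfusion injury), taken 12 h after reperfusion. There was 1 library in each group, so no difference below has a replicate check, and no test was run. Levels are FPKM (fragments mapped to a gene, divided by transcript length and by library size) as deposited, and each log2 ratio is log2((IR12 FPKM + 1)/(CTRL FPKM + 1)), which understates differences of genes with low FPKM.

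The rod genes were abundant in both libraries. The FPKM of Gnat1, the alpha subunit of rod transducin, was 4027 for CTRL and 4237 for IR12, and the 5 rod markers described here summed to 8049 and 10451. Of these 5, 3 were higher in IR12 as deposited, and 5 when each library's FPKM was scaled to a common total (the TPM scale). Among all genes with a mean FPKM of at least 1, 51.9% were higher as deposited and 85.2% on the TPM scale. Sag, rod arrestin, had the highest ratio, at 2482 and 4703 (log2 ratio 0.92), while Pde6b (-0.31) and Nrl (-0.45) were lower as deposited. The 6 leukocyte markers were all higher in IR12, with a summed FPKM of 11.5 in CTRL and 123 in IR12. Lyz2 was the most abundant of these, and S100a8 was listed at 0 in CTRL. Of the 5 Müller glia markers, 1 was higher in IR12, the filament gene Vim, and their summed FPKM was 1157 in CTRL and 422 in IR12, with Glul the most abundant. All 5 lens markers were lower in IR12, with sums of 2953 and 352 and Cryba1 the most abundant. The part of these cell types in the proteasome values was not tested. In whole retina, a different number of cells of a type and a different amount of RNA per cell cannot be told apart.

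Nearly all proteasome genes were somewhat higher in the injured retina. Of the 47 genes, 44 had a mean FPKM over both libraries of at least 1, and 42 of these 44 were higher in IR12, against 51.9% of the 13186 genes with such a mean. Both the 44 and the 42 include Psmc3ip, which does not code for a subunit. The median log2 ratio of the 44 genes was 0.47, against 0.02 for all 13186 genes. At least 1.5-fold higher in IR12 were 13 of the 44, against 14.3% of all genes, and 0 were at least 1.5-fold lower, against 13.4% of all genes. The count of 42 takes any difference above 0 and includes Psmg4, whose log2 ratio was 0.0003, while Psmd10 and Psme4 were lower as deposited. It was 41 when centred on the median of all genes, where Psmg4 was lower too, and 40 when both libraries were scaled to the same sum without small non-coding RNAs, where Psmg4 and Psmb1 were lower too. On the TPM scale the median of all genes moved to 0.60, and 85.2% of all genes were higher, 51.1% at least 1.5-fold higher and 5.06% at least 1.5-fold lower. On that scale all 44 members were higher and 42 were at least 1.5-fold higher, and the members' median stood 0.50 above that of all genes, compared with 0.45 as deposited.

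**Figure D1:**
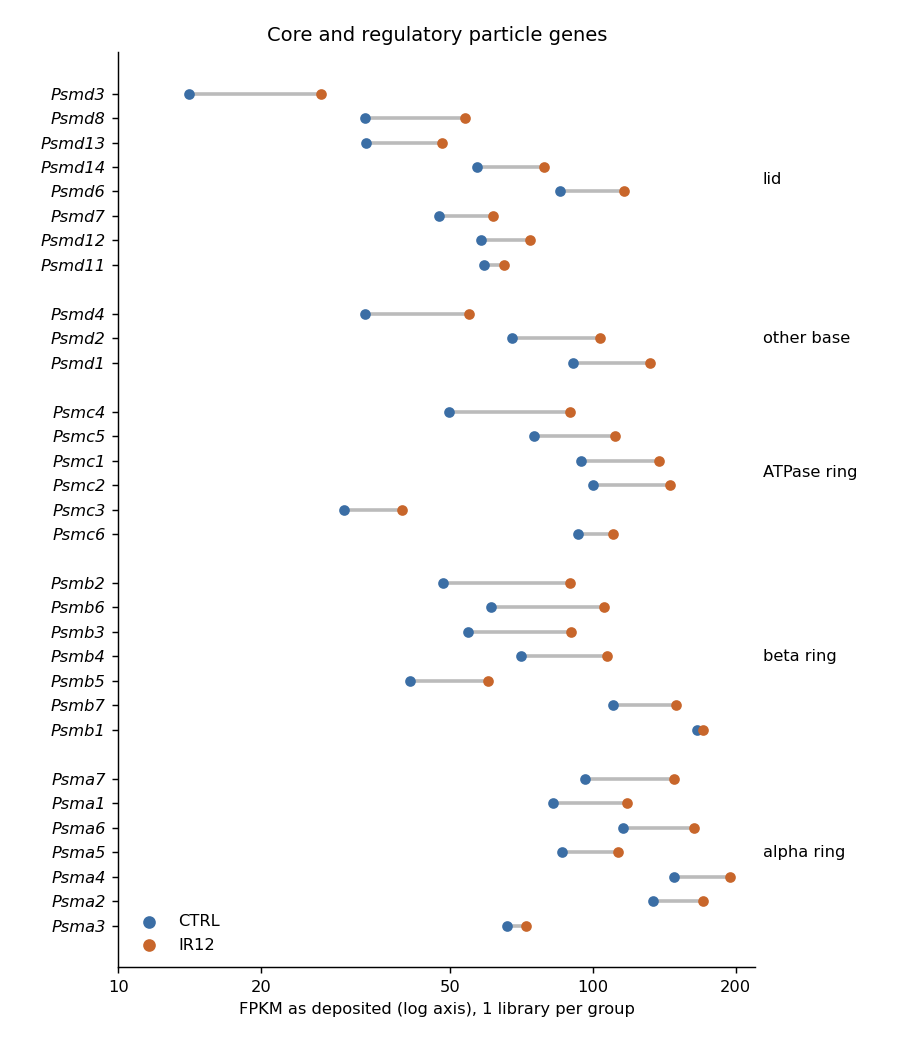
FPKM of the 31 core and regulatory particle genes in CTRL (blue) and IR12 (orange), on a log axis, ordered by log2 ratio within each ring or subcomplex. Every orange point lies to the right of its blue point, and the points of Psmb1 nearly touch (165 and 171).

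Among the 14 core genes the log2 ratio ran from 0.04 to 0.87 with a median of 0.50. All 14 were higher in IR12 as deposited, against 51.9% of all genes. Psmb1, however, had a log2 ratio of -0.05 when scaled without small non-coding RNAs. The highest ratios were in the beta ring. Psmb2, a structural beta subunit, was at 48.3 FPKM in CTRL and 89.3 in IR12 (log2 ratio 0.87). Psmb6, which carries the caspase-like active site, had 60.9 and 106 (log2 ratio 0.79). Psmb3, another structural subunit, had 54.6 and 89.8 (log2 ratio 0.71). In CTRL these 3 genes were among the 4 least abundant of the core. The remaining active sites are those of Psmb5, which cuts after hydrophobic residues, and Psmb7, which cuts after basic ones. Psmb5 was the least abundant core gene in both libraries, at 41.1 and 60.2 (log2 ratio 0.54). Psmb7 was at 110.2 and 149 (log2 ratio 0.44). A detected gene, Nek6, with 9.03 FPKM (CTRL) and 23.9 FPKM (IR12), overlaps the listed locus of Psmb7. Whether the counting used strand was not stated, so the value of Psmb7 is uncertain to that extent.

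Psmb4, a structural beta subunit, was just past 1.5-fold, at 70.7 and 107 (log2 ratio 0.59). In the alpha ring Psma7 alone passed that fold as deposited, with 96.4 in CTRL and 148 in IR12 (log2 ratio 0.61), against 14.3% of all genes, while all 7 alpha genes passed it on the TPM scale, against 51.1% of all genes. The lowest ratios of the core belonged to Psmb1, Psma3 and Psma2. Psmb1, a structural subunit and the most abundant core gene of CTRL, was at 165 and 171 (log2 ratio 0.04). Psma3 was at 66.0 and 72.4 (log2 ratio 0.13). Psma2 was at 134 and 171 (log2 ratio 0.35). The median log2 ratio was 0.39 in the 7 alpha genes and 0.59 in the 7 beta genes, and the range of the beta genes, 0.04 to 0.87, enclosed that of the alpha genes, 0.13 to 0.61. The level of the beta genes was more even in IR12, where the SD of log2 FPKM across the 7 genes was 0.50, than in CTRL, where it was 0.71. In the alpha ring it was the other way round, with an SD of 0.42 in CTRL and 0.48 in IR12.

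The 17 genes of the regulatory particle had log2 ratios from 0.14 to 0.88 with a median of 0.53. All 17 were higher in IR12 as deposited, against 51.9% of all genes. Psmd3, a lid subunit, was the least abundant gene of the particle and had the highest ratio, with 14.1 in CTRL and 26.8 in IR12 (log2 ratio 0.88). Psmc4, one of the 6 ATPases, had 49.7 and 89.7 (log2 ratio 0.84). Psmd4, a ubiquitin receptor of the base, had 33.1 and 54.9 (log2 ratio 0.71). A high ratio therefore occurred in the lid, in the ATPase ring and among the other base subunits. Also past 1.5-fold were the lid subunit Psmd8, with 33.1 and 53.7 (log2 ratio 0.68), and Psmd2, a large scaffold of the base that docks ubiquitin carriers, with 67.6 and 103 (log2 ratio 0.61).

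The lowest ratios of the regulatory particle were those of Psmd11, Psmc6 and Psmd12. Psmd11, a lid subunit that clamps the lid onto the core, was at 59.0 and 65.1 (log2 ratio 0.14). Psmc6, an ATPase, was at 93.1 and 110.3 (log2 ratio 0.24). Psmd12, another lid subunit, was at 58.1 and 73.6 (log2 ratio 0.34). The median log2 ratio was 0.54 in the 6 ATPases, 0.61 in the 3 other base genes and 0.45 in the 8 lid genes. Psmd14, the lid enzyme that cuts the ubiquitin chain off, was near the lid's median, at 56.9 and 79.1 (log2 ratio 0.47).

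Set against each other, core and regulatory particle differed little. The median log2 ratio of the core minus that of the regulatory particle was -0.03. Of the 14 core genes, 12 lay inside the range of the regulatory particle, and 16 of the 17 regulatory genes lay inside the range of the core. In each particle, 5 genes were at least 1.5-fold higher, against 14.3% of all genes. The summed FPKM of the core was 1281 in CTRL and 1752 in IR12, a ratio of 1.37, and that of the regulatory particle was 1021 and 1449, a ratio of 1.42. The core genes were the more abundant in both libraries, with a median FPKM of 84.2 (CTRL) and 115 (IR12), while the regulatory particle had medians of 58.1 and 79.1. The quotient of these medians, core over regulatory particle, was 1.45 in CTRL and 1.46 in IR12.

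**Figure D2:**
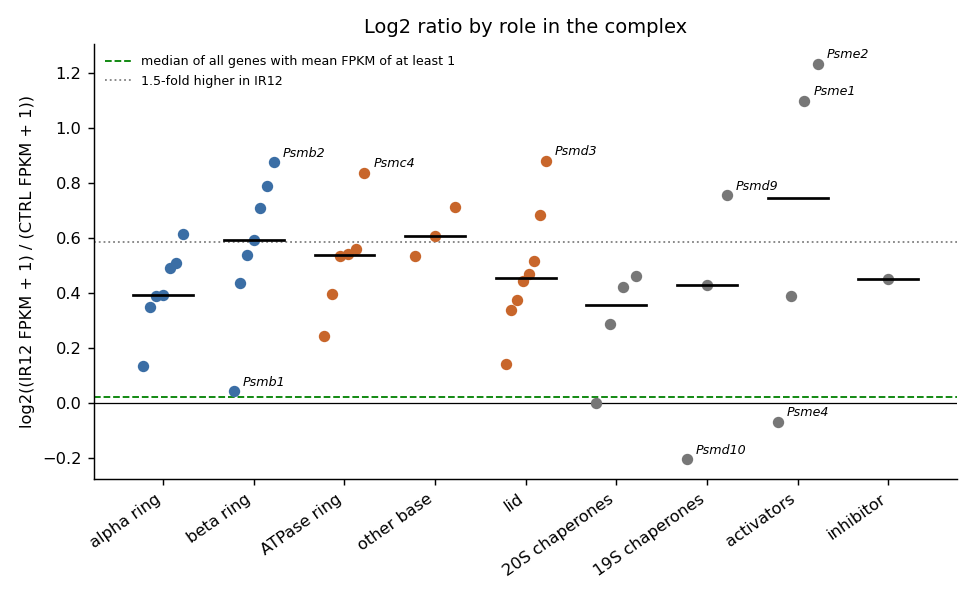
Log2 ratio of each detected gene (points) by its role, with the median of each role as a black bar, core in blue, regulatory particle in orange and other members in grey; dashed and dotted lines mark the median of all genes (0.02) and 1.5-fold. The core and regulatory points cover nearly the same range, and the widest spread is among the activators, from -0.07 to 1.23.

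The order of the 31 core and regulatory genes by abundance was largely the same in both libraries. Across these genes, which are not independent replicates, log2 FPKM in CTRL and IR12 had a Pearson r of 0.96, and the Spearman coefficient of the levels was 0.97. Genes with a lower level in CTRL tended to have a higher ratio (Spearman coefficient -0.43 between CTRL FPKM and log2 ratio), a relation that shares the CTRL value on both axes. The SD of log2 FPKM across the 31 genes was 0.77 in CTRL and 0.68 in IR12. The 31 loci lie on 13 chromosomes, with at most 6 on 1 of them, chromosome 10.

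The chaperones of core assembly had a median log2 ratio of 0.35, against 0.39 in the alpha ring, on which they act. Psmg1 and Psmg2 form a pair that starts the alpha ring. Psmg1 was at 38.5 in CTRL and 53.5 in IR12 (log2 ratio 0.46), and Psmg2 was at 11.9 and 16.3 (log2 ratio 0.42). Psmg3 and Psmg4 form a second pair that acts on the same ring. Psmg3 was at 8.46 and 10.6 (log2 ratio 0.29), whereas Psmg4 had the same FPKM in both libraries to 3 digits, 25.0 (log2 ratio 0.00), and was lower when scaled without small non-coding RNAs (-0.09).

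The 3 chaperones of the base each hold a different part of the ATPase ring during assembly. Psmd5 was at 34.7 in CTRL and 47.0 in IR12 (log2 ratio 0.43). Psmd9 was the least abundant detected member, at 3.70 and 6.93 (log2 ratio 0.76). Psmd10, also known as gankyrin, was lower in IR12 as deposited, at 20.9 and 18.0 (log2 ratio -0.20), and when scaled without small non-coding RNAs (-0.30), but higher on the TPM scale (0.41), where it stayed below the median of all genes. As deposited the base chaperones thus lay in both directions, with 2 of the 3 higher. The 6 ATPases and 3 other base genes were all higher, against 51.9% of all genes.

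Activators are alternative caps that open the core without ATP, and 2 of them held the highest ratios of all members. Psme1 and Psme2 code for the subunits of a ring-shaped activator that is known to be induced by interferon gamma and to favour the production of peptides for antigen presentation. Psme1 was at 35.6 FPKM in CTRL and 77.3 in IR12 (log2 ratio 1.10). Psme2 had 14.2 and 34.8 (log2 ratio 1.23). The 2 genes are neighbours on chromosome 15 of rn6, with Psme1 at chr15:34256071-34263224 and Psme2 at chr15:34265557-34269851. Emc9, a gene that overlaps the listed locus of Psme1, was at 1.66 and 1.58. Psme3 codes for a related activator of the nucleus and was at 33.3 and 43.8 (log2 ratio 0.39). Psme4, a large single-chain activator of the nucleus that promotes the degradation of acetylated histones, was at 56.3 and 53.6, a log2 ratio of -0.07 as deposited, -0.16 when scaled without small non-coding RNAs and 0.57 on the TPM scale, where the median of all genes was 0.60. In CTRL Psme4 was thus the most abundant of the 4 activator genes, and in IR12 it was Psme1. Psmf1, which codes for a protein that inhibits the core in vitro, was at 18.7 and 26.0 (log2 ratio 0.45).

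**Figure D3:**
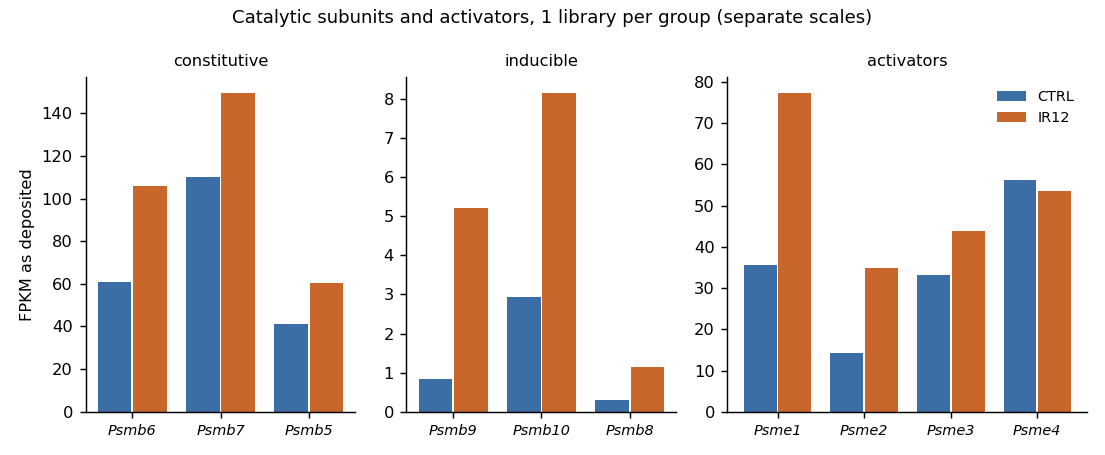
FPKM in CTRL (blue) and IR12 (orange) of the constitutive active-site genes, the inducible genes that replace them and the 4 activator genes; each panel has its own linear axis from 0. The inducible genes are higher in IR12 but stay under 9 FPKM, and Psme1 and Psme2 are more than 2-fold higher in IR12 while Psme4 as deposited is not.

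The inducible genes Psmb8, Psmb9 and Psmb10 code for active-site subunits that take the places of Psmb5, Psmb6 and Psmb7 in the immunoproteasome, a form that is abundant in leukocytes. They were higher in IR12 but remained far below the constitutive genes. Psmb9 was at 0.85 in CTRL and 5.21 in IR12 (log2 ratio 1.75). Psmb10 was at 2.94 and 8.14 (log2 ratio 1.21). Psmb8 was at 0.30 and 1.15, below the level used for counting. Taken as sums of FPKM, the 3 inducible genes had 4.09 in CTRL and 14.5 in IR12, and the 3 constitutive genes 212 and 315. The inducible genes therefore made up 1.89% of the active-site total in CTRL and 4.40% in IR12. The leukocyte markers given above were higher in IR12 as well, and their part in these values, and in those of Psme1 and Psme2, was not tested.

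Since nearly all members were higher together, the RefSeq promoters of 41 members that could be matched by symbol (assembly GRCr8, which differs from the rn6 build of the FPKM table) were searched on both strands, from 250 bases before to 50 bases after the start. Not matched were Psma7, Psmb11, Psmd6, Psmd12, Psmd14 and Psme1-ps1. TGACNNNGC, a core form of the antioxidant response element to which the Nfe2l1 and Nfe2l2 factors bind, occurred in 8 of the 41, or 19.5%, compared with 12.1% of all 33469 promoters and 14.3% of the 10183 promoters of genes with a mean FPKM of at least 1. The 5 sequences below are each the 250 bases before the start. They are shown because they belong to the members with the highest ratios of the core and of the whole set, to the hydrophobic active site and to an activator that was not higher as deposited. Capitals mark TGACNNNGC, TGAGNNNGC and GAAANNGAA on either strand where the whole match lies within these bases. A further TGAGNNNGC of Psmb2, whose first base lies 6 bases before the start, crosses the start and is not marked. The sequences lie at chr5:144254808-144255057 (plus strand) for Psmb2, chr10:55737638-55737887 (plus) for Psmb6, chr15:32047380-32047629 (minus) for Psmb5, chr15:33052752-33053001 (minus) for Psme2 and chr14:108706393-108706642 (plus) for Psme4.
Psmb2: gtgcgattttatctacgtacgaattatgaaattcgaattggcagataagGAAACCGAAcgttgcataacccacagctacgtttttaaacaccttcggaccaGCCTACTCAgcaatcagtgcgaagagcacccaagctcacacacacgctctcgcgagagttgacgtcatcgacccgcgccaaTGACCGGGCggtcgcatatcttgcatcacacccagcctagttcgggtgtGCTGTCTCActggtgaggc
Psmb6: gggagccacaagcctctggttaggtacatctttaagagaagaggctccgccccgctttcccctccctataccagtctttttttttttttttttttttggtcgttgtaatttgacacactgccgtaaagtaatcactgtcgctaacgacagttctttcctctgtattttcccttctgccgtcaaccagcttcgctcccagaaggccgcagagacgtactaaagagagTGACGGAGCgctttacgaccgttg
Psmb5: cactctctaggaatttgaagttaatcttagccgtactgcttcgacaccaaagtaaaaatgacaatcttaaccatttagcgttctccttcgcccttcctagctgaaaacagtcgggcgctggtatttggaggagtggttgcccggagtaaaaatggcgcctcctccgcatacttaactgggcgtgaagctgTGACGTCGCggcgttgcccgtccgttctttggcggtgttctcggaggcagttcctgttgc
Psme2: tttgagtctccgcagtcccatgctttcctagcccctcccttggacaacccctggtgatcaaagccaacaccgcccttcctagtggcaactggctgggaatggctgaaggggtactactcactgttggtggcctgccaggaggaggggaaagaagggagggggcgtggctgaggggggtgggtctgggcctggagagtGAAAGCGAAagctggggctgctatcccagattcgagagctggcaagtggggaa
Psme4: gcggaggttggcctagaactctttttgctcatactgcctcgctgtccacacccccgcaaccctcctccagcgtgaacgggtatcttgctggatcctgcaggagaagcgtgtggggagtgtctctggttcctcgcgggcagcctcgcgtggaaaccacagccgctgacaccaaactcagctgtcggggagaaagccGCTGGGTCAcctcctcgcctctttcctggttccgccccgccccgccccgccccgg

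TGACNNNGC was present before the start in Psmb2, Psmb6 and Psmb5, and also in Psme4, whose FPKM was not higher in IR12 as deposited. The other members with it were Psma3, Psmd1, Psmd3 and Psmd9, with log2 ratios from 0.13 to 0.88. It was absent from the searched promoters of Psmb3, Psmb7, Psmc4, Psme1 and Psme2, whose log2 ratios ran from 0.44 to 1.23. The base of the match furthest from the start lay 68 bases before it in Psmb2, 24 in Psmb6 and 60 in Psmb5. In Psme4, where the match is on the opposite strand, that base lay 55 bases before the start. In Psmd3, which had the highest ratio of the regulatory particle, the match lay after the start. The related form TGAGNNNGC was found in 10 of the 41 promoters, or 24.4%, compared with 17.2% of all promoters and 20.1% of those 10183. CCGGAAG, an ETS-type motif common in promoters of widely expressed genes, was in 16 of the 41, or 39.0%, compared with 8.75% of all promoters and 16.4% of those 10183. Among those with CCGGAAG were Psme4, Psma8, whose mean FPKM was under 1, and Psmc3ip, which does not code for a subunit. CCAAT was in 20, or 48.8%, compared with 37.5% of all and 36.8% of those 10183, and the heat shock type motif GAANNTTC was in 2, Psmc3 and Psmd1, or 4.88%, compared with 8.59% of all and 5.42% of those 10183. GAAANNGAA, an interferon response type motif added after the values were seen, was in 7 of the 41, or 17.1%, compared with 9.71% of all promoters and 7.09% of those 10183. These were Psme2 and Psmb2, shown above, with Psma4, Psmb3 and Psmd7, and also Psmd11 and Psmg4, whose log2 ratios were only 0.14 and 0.00. In Psme2 its first base lay 53 bases before the start, and in Psmb2 201 bases. A match is a description of the letters and not of binding.

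The other genes of the pathway, 28 on a list of proteasome partners, ubiquitin genes and regulators, were less uniform. Of these, 26 had a row under a listed symbol and 25 had a mean FPKM of at least 1. As deposited, 21 of the 25 were higher in IR12, against 51.9% of all genes, with a median log2 ratio of 0.26. At least 1.5-fold higher were 5 and at least 1.5-fold lower was 1, against 14.3% and 13.4% of all genes. On the TPM scale 24 of the 25 were higher, against 85.2% of all genes. On that scale 22 were at least 1.5-fold higher and 0 at least 1.5-fold lower, against 51.1% and 5.06% of all genes. Pomp, the maturation factor of the core, was listed at 0 in both libraries, and Ubb and Ecpas had no row under those symbols. The highest ratio was that of Nfe2l2, a transcription factor of the oxidative stress response, with 18.5 in CTRL and 52.3 in IR12 (log2 ratio 1.45). Nfe2l1, the factor known for raising proteasome genes when the proteasome is impaired, was at 35.2 and 40.7 (log2 ratio 0.20). Of the enzymes that process Nfe2l1, the protease Ddi2 was at 30.0 and 34.8 (log2 ratio 0.21) and the glycanase Ngly1 at 37.5 and 36.5 (log2 ratio -0.04 as deposited, 0.59 on the TPM scale).

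Shuttle proteins carry tagged substrates to the regulatory particle. Rad23b was at 68.7 in CTRL and 117 in IR12 (log2 ratio 0.76), while Ubqln2 was the gene at least 1.5-fold lower, at 28.9 and 16.2 (log2 ratio -0.80, and -0.18 on the TPM scale). Vcp, the unfoldase that extracts substrates from membranes and complexes, was at 181 and 241 (log2 ratio 0.41). Its cofactor Nsfl1c was at 47.6 and 85.2 (log2 ratio 0.83). As deposited, 1 of the 6 shuttle genes and 1 of the 4 unfoldase genes were at least 1.5-fold higher, against 14.3% of all genes. On the TPM scale 5 shuttle genes and 4 unfoldase genes were, against 51.1% of all genes. Rps27a, which codes for ubiquitin fused to a ribosomal protein, was at 886 and 1514 (log2 ratio 0.77). Zfand2a, a stress-induced partner of the regulatory particle, was at 9.20 and 14.6 (log2 ratio 0.62). Shfm1, the small lid subunit whose symbol the rule does not take, was at 60.0 and 87.5 (log2 ratio 0.54), close to the median of the regulatory particle. Adrm1, a ubiquitin receptor of the base, was at 8.07 and 10.9 (log2 ratio 0.39).

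Other large complexes give a scale for these ratios. The 8 chaperonin genes, whose product folds actin and tubulin, had a median log2 ratio of 0.76, and 7 of them were at least 1.5-fold higher in IR12, against 14.3% of all genes. The 67 detected genes of the cytosolic ribosome had a median of 0.86, with 67 higher and 55 at least 1.5-fold higher, against 51.9% and 14.3% of all genes. Both medians lay above those of the core (0.50) and the regulatory particle (0.53). The 32 detected genes of complex I of the respiratory chain had a median of 0.18. As deposited, 20 of these were higher, 4 at least 1.5-fold higher and 1 at least 1.5-fold lower, against 51.9%, 14.3% and 13.4% of all genes. On the TPM scale 32 were higher, against 85.2% of all genes. Of these, 23 were at least 1.5-fold higher, against 51.1% of all genes, and 0 were at least 1.5-fold lower, against 5.06%. By their medians, core and regulatory particle therefore lay between complex I and the chaperonin, but the range of complex I, -0.60 to 0.92, enclosed the 0.04 to 0.88 of their 31 genes. Higher levels in IR12 were not particular to the proteasome.

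**Figure D4:**
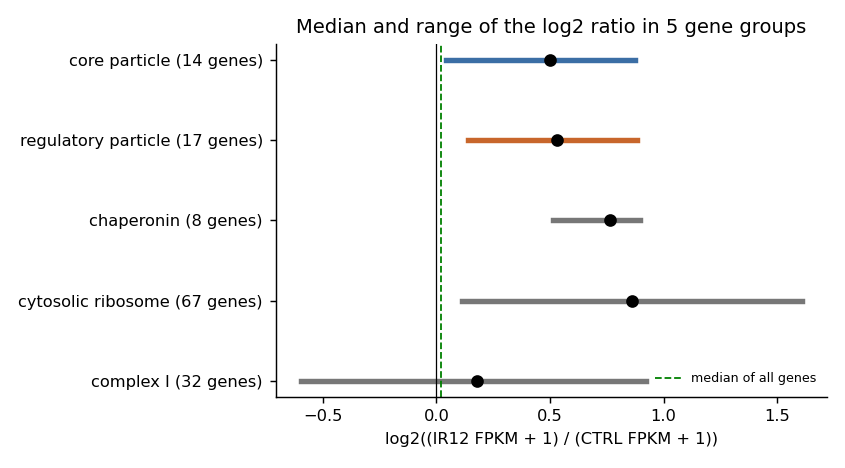
Range (bar) and median (black point) of the log2 ratio in the core, the regulatory particle and 3 other complexes, with the median of all genes (0.02) dashed. The bars of core and regulatory particle nearly coincide, and the ribosome and chaperonin medians lie to their right.

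The log2 ratio varied with the length of the listed locus over all genes. With the 13186 genes split by length into 10 classes of like size, the median was 0.00 up to 3021 bases, 0.17 from 3024 to 6749 bases and -0.25 from 140736 bases on. The 31 core and regulatory loci had a median length of 11020 bases, compared with 25015 for all genes. With each log2 ratio taken relative to the median of its length class, an alternative added after the data were seen, the median was 0.38 in the core and 0.39 in the regulatory particle, and 30 of the 31 genes lay above their class median, the exception being Psmb1. Psmd1, Psmd14 and Psmb7 have long listed loci, of 74413, 94955 and 140137 bases, and lay 0.59, 0.59 and 0.56 above their class medians. The listed locus of Psmb7 overlaps Nek6, and whether this affects its length class was not tested. Psme4, at 102641 bases, lay 0.05 above its class median, while Psmd10, at 5456 bases, lay -0.37 from it.

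**Figure D5:**
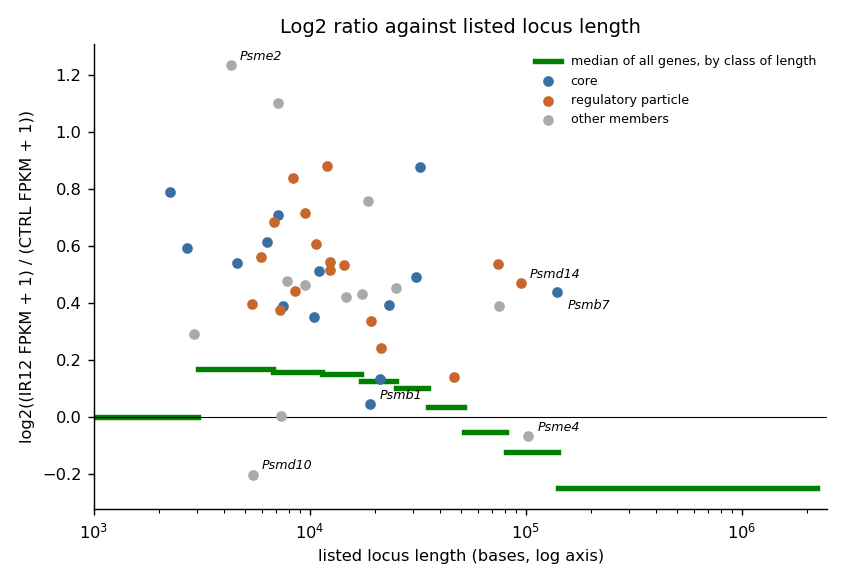
Log2 ratio of the 44 detected members against listed locus length on a log axis, with the median of all genes in each of 10 length classes as green bars. The green bars descend from 0.17 to -0.25 beyond 3024 bases, and 41 of the 44 points lie above the bar of their length.

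Of the members not yet described, Psmc3ip was at 13.4 in CTRL and 19.1 in IR12 (log2 ratio 0.47), and its listed locus overlaps that of Mlx, at 21.4 and 31.8, so its value is uncertain. The 3 members with a mean FPKM under 1 were Psma8, Psmb11 and Psme1-ps1. Psma8, an alpha subunit of the testis, was at 0.14 in CTRL and 0.04 in IR12. Psmb11, the beta subunit of the thymus, was listed at 0 in both. Psme1-ps1 was at 0.12 and 0.21.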

How the data were processed

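RNA of 1 CTRL and 1 IR12 retina was sequenced after ribosomal RNA depletion. The labels and the methods of the study name a stranded total RNA kit, whereas the design text of the series names a stranded mRNA kit. Values were used as the authors deposited them, a table with 1 FPKM per gene and library for 32662 genes. The submitters' processing notes name STAR 2.5.2b, Cuffdiff 2.2.0 and the build rn6, without the role of each tool. Because the listed start positions are 0-based, 1 was added to each.

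The log2 ratios used a pseudocount of 1, a minimum mean FPKM of 1 over both libraries and a call at 1.5-fold. Total FPKM was 1402321 for CTRL and 895200 for IR12. Of this, small non-coding RNAs, recognised by symbol, made up 67.7% and 45.9%, so the totals do not measure depth. Among the 186 genes with a listed locus of 939 bases, all values above 0 (6 in CTRL, 17 in IR12) were whole multiples, within 0.02, of 0.0881 in CTRL and 0.0516 in IR12. Each step was taken from these same values, as the smallest one listed more than once, so some of them match by construction. The ratio of these steps, 1.71, describes the deposited scale and is not the ratio of reads sequenced. If a step is 1 read, the FPKM of Psmd3 at that length corresponds to 160 reads in CTRL and 519 in IR12, and that of Psmd9, the lowest detected member, to 42.0 and 134.

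The members and lists were chosen with earlier results of these data known. Named are the active-site genes, the 3 highest and 3 lowest log2 ratios of core and regulatory particle, members past 1.5-fold, chaperones, activators and the inhibitor, and list genes past 1.5-fold or with a role given. Psmd14, Psmd1, the members under the minimum and those that are not subunits were named after their values were seen. Alternatives tried were the TPM scale, centring on the median of all genes, a pseudocount of 0.1, a minimum mean of 5 or none and geometric means, and 3 more were added after the data were seen: scaling without small non-coding RNAs, centring by locus length, and leaving out Psmb7 and Psmc3ip, the 2 detected members whose locus overlaps a gene with at least 5% of their mean FPKM. Some genes of the rod and ubiquitin lists are not reported here, and the counts and sums of these lists leave them out. The summaries were checked on simulated data. Computations used Python 3.11.15 with pandas 2.3.3, numpy 2.4.6 and scipy 1.17.1, and plots matplotlib 3.10.9.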

Additional observations from a re-analysis of the deposited data

How the results depend on the processing

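Under 62 alternative values of 9 results, 53 stayed within 0.1 on the log2 scale, or within 1.5 times for counts, and 9 moved further. None of the medians, their difference or the summed ratios changed direction. On the TPM scale the median log2 ratio was 1.10 over the 44 members, 1.14 in the core and 1.17 in the regulatory particle, the number at least 1.5-fold higher was 42 in place of 13, and the summed FPKM ratio was 2.14 for the core and 2.22 for the regulatory particle. These follow from the scaling itself, which adds 0.65 to the log2 ratio of every abundant gene, and the median of all genes moved with them. Relative to genes of like locus length, the medians were 0.37 over all members, 0.38 in the core and 0.39 in the regulatory particle; the cause was not tested. The core minus regulatory particle difference lay between -0.03 and -0.01 under every alternative run. No paired analysis was possible because each group had 1 library. Depth limits Psmd9 and the members under the minimum most, and variation between animals could not be measured. Reads shared with overlapping genes or pseudogene copies could not be separated.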

Other observations

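The remaining marker lists, which enter no comparison above, had the following levels as deposited. The 5 microglia genes summed to 12.1 FPKM in CTRL and 12.5 in IR12, with Aif1 the most abundant. Of these 5, 2 were higher in IR12 as deposited and 2 on the TPM scale, against 51.9% and 85.2% of all genes. The 5 retinal ganglion cell genes summed to 209 and 159.5, with Nefl the most abundant. Of these 5, 1 was higher in IR12 as deposited and 4 on the TPM scale, against 51.9% and 85.2% of all genes. The 3 pigment epithelium genes summed to 137 and 31.8, led by Rlbp1, which is also a Müller glia marker. The 2 listed blood genes summed to 20.8 and 35.3, led by Hbb, and the 2 listed endothelium genes to 3.80 and 3.28. In each of these 2 pairs, 1 gene was higher in IR12 as deposited and 1 on the TPM scale, against 51.9% and 85.2% of all genes. The part of these marker lists in the proteasome values was not tested.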
